A study of Caenorhabditis elegans with 12 samples.

Results

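Loss of CEC-4, a reader of methylated histone H3 lysine 9, was examined by comparing where chromatin touches the nuclear membrane protein LEM-2 in cec-4 mutant and wild-type early embryos of *Caenorhabditis elegans*. The comparison used the 4 LEM-2 and 4 input libraries of these genotypes, chosen by their labels as 8 of the 12 libraries in the series, and all 504 windows of 200 kb. The wild type was strain GW1 and the mutant strain GW828, which carries a cec-4 deletion (cec-4_delta). The other 4 libraries came from strain GW638 (met-2 set-25_delta_delta) and entered the fit of the spread. Embryos of each strain came from bulk liquid cultures started with 400000 synchronized L1 larvae, grown at 20 °C and harvested after 60 to 65 hours. The values are therefore averages over all cells of pooled embryos, and fewer cells with a contact cannot be told apart from less contact per cell. The 200 kb windows are too wide to show the deletion, so the genotype rests on the label.

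LEM-2 is an inner nuclear membrane protein, and chromatin immunoprecipitation with an antibody to it recovers DNA that lies against the nuclear envelope. In worm embryos the arms of the autosomes are rich in repeats and in methylated histone H3 lysine 9 and lie near the envelope, while the chromosome centres are rich in widely expressed genes and lie further inside. MET-2 and SET-25 place the methyl groups on this lysine. CEC-4, which sits at the nuclear periphery, binds them through its chromodomain and so tethers heterochromatin to the envelope. The comparison asks which stretches of chromosome lose, keep or gain relative LEM-2 contact when this reader is absent.

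Enrichment is given as the log2 ratio of LEM-2 over its matched input (equal genotype and replicate number), both scaled to their library totals. Each genotype has 2 such library pairs. A window named by its limits in Mb starts at the next base, so V 17 to 17.2 Mb covers bases 17000001 to 17200000. Centres were taken from 4 to 11 Mb on I, 5 to 12 on II, 4 to 10 on III, 4 to 13 on IV, 6 to 17 on V and 6 to 12 on X, and the arms as the rest. The sources used here do not give the genome build. Libraries held 10750212 to 12340446 counts, with a median of 19479.5 or more per window. The LEM-2 libraries of cec-4 differed from each other more than those of any other group, with a chi-square per degree of freedom of 73.9 against 33.3 in wild-type. Scaling to library totals ties the windows together, since shares lost in one place appear elsewhere. All changes below are therefore relative, and absolute loss or gain of contact was not measured.

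In cec-4 embryos relative LEM-2 contact fell over most of the autosomal arms and rose over the autosomal centres and, with library totals as scaling, most of X. After Benjamini-Hochberg adjustment over all windows, the quasi-likelihood test of edgeR called 394 of 504 windows (78.2%). Of all windows 255 rose (50.6%) and 139 fell (27.6%), and 110 were not called. The edgeR fit gave each window the same spread for input and LEM-2 libraries. The chi-square per degree of freedom between replicates was 9.07 or less in inputs, 33.3 in wild-type LEM-2 and 73.9 in cec-4 LEM-2. The SEs and p-values of edgeR for cec-4 may therefore be too small, and the number of calls too high. On the arms of the autosomes 127 of 215 windows fell and 24 rose. In the autosomal centres 168 of 200 rose and 6 fell, and on X 63 of 89 rose and 6 fell. Both cec-4 pairs lay above both wild-type pairs in 285 windows (56.5%) and below them in 159 (31.5%). The split of calls depended on the scaling, with 184 rises and 183 falls under TMM factors, which place the median window at 0.03 in place of 0.16. Under TMM factors 35 of the 89 windows of X rose and 13 fell, 10 arm windows rose and 160 fell, and 139 centre windows rose and 10 fell.

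**Figure D1:**
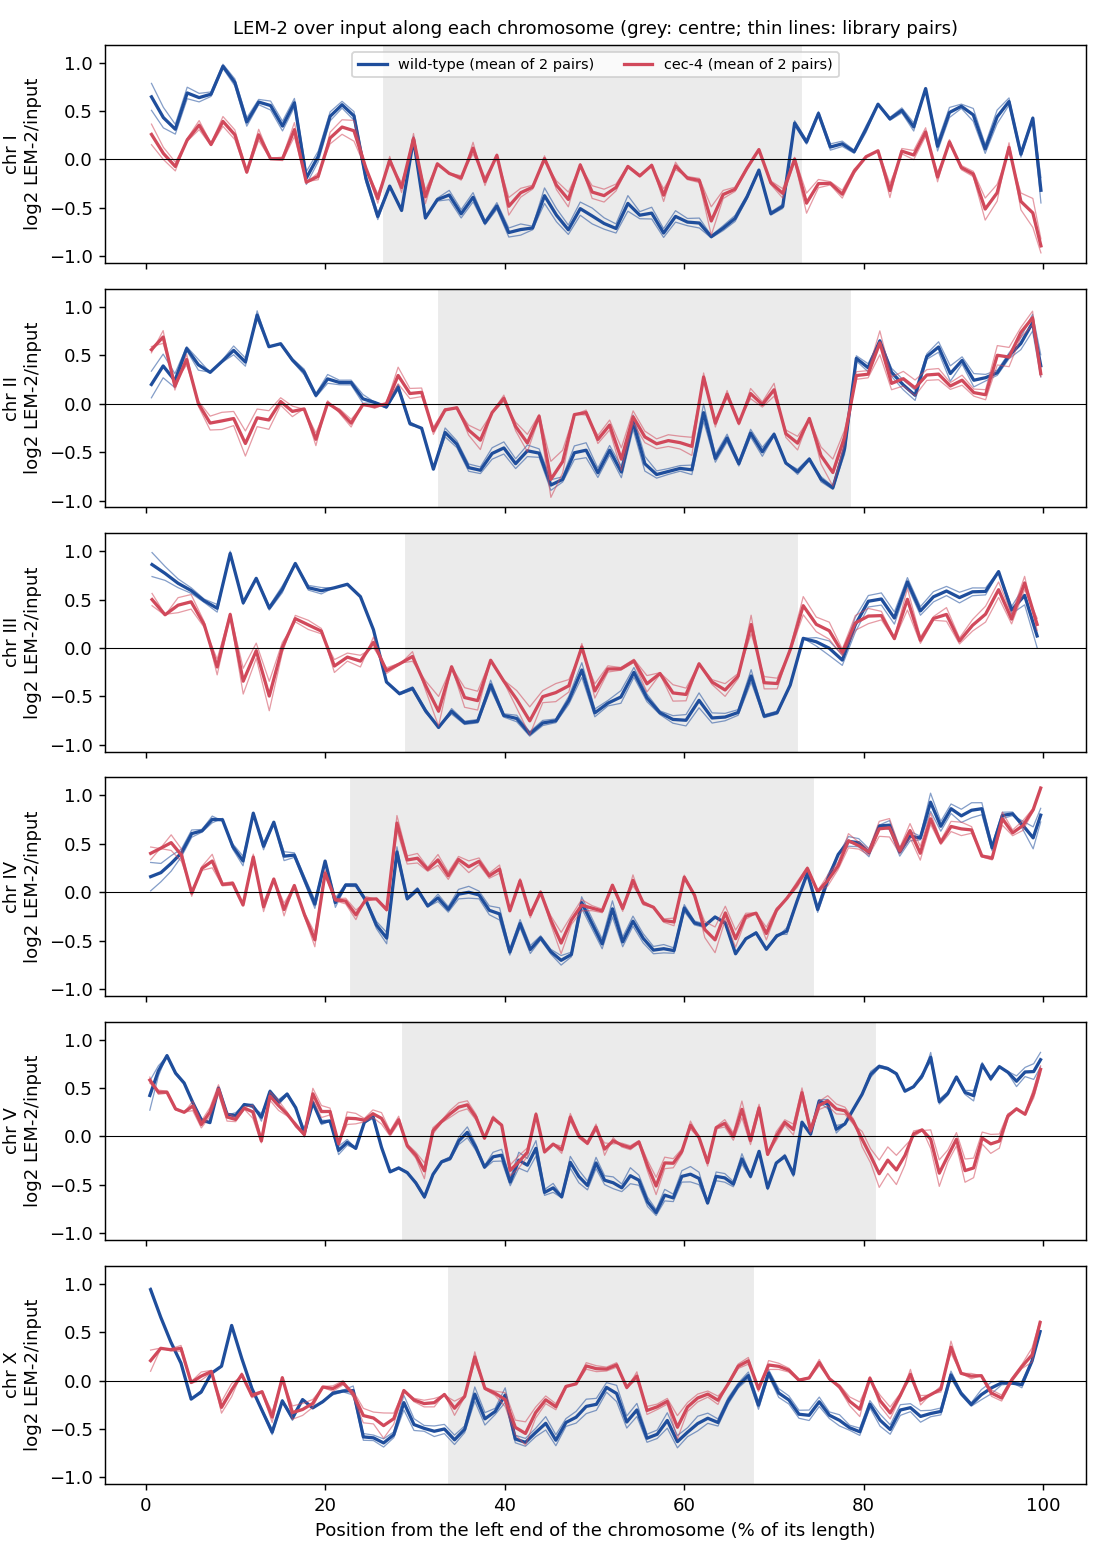
LEM-2 over input (log2) per 200 kb window against position, in percent of chromosome length from the left end, for the 6 chromosomes. Thick lines are means of 2 library pairs in wild-type (blue) and cec-4 (red), thin lines the single pairs and grey areas the centres. The cec-4 line lies below wild-type over the whole right arm of I and nearly all of the right arm of V, and close to it on the right arms of II and IV.

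The fall was laid out in long unbroken stretches. Runs of at least 3 neighbouring windows that fell numbered 11 and held 119 of the 139 windows, over 23.7 Mb. The longest lay on the right arms of I and V, with 22 windows each. The stretch on I ran from 10.8 Mb to the right end and took in every window of that arm. Over it the wild-type pairs averaged 0.36 and 0.29 and the cec-4 pairs -0.15 and -0.22. The stretch on V ran from 16.4 to 20.8 Mb and left out only the last window of the chromosome among the 20 of that arm. Here the wild-type pairs averaged 0.59 and 0.57 and the cec-4 pairs 0.0028 and -0.13. In both stretches all 22 windows had the cec-4 pairs below the wild-type pairs. All 22 windows of the V stretch were enriched over input in wild-type, and in cec-4 5 were enriched and 9 depleted.

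The left arms of II, III and IV each had a stretch of 14 windows that fell over the same positions, from 0.8 to 3.6 Mb. On II the wild-type pairs averaged 0.44 and 0.40 and the cec-4 pairs -0.09 and -0.20. No window of this stretch remained enriched over input in cec-4 and 8 were depleted, where 13 had been enriched in wild-type. On III the pairs averaged 0.60 and 0.57 in wild-type and 0.03 and -0.04 in cec-4, with 5 windows enriched and 6 depleted in the mutant. On IV they averaged 0.50 and 0.45 in wild-type and 0.03 and 0.02 in cec-4, with 7 enriched and 5 depleted. The stretches on III and IV thus ended at about the level of the input and that on II below it.

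Other falling stretches kept part of their contact. On the left arm of I 13 windows from 0 to 2.6 Mb averaged 0.64 and 0.53 in wild-type and 0.15 and 0.17 in cec-4, and 8 stayed enriched. On the right arm of III 7 windows from 11.8 to 13.2 Mb averaged 0.61 and 0.53 in wild-type and 0.23 and 0.34 in cec-4, and 5 stayed enriched with 0 depleted. On the left arm of V 4 windows from 0.2 to 1 Mb averaged 0.68 and 0.67 in wild-type and 0.35 and 0.37 in cec-4, and all 4 stayed enriched. A falling stretch on X ran over 3 windows from 1.4 to 2 Mb, from 0.32 and 0.31 to -0.07 and -0.14. The remaining short ones lay on I from 2.8 to 3.4 Mb and on III from 0 to 0.6 Mb.

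The 8 windows with the largest falls lay inside these stretches, 5 of them on V between 16.8 and 18.4 Mb. The largest, V 17 to 17.2 Mb, went from 0.71 and 0.74 to -0.24 and -0.53, a change of -1.10 (SE 0.11, edgeR adjusted p = 1.14e-06). The window I 14.8 to 15 Mb went from 0.44 and 0.42 to -0.40 and -0.70. At III 1.8 to 2 Mb the wild-type ratios were 0.43 and 0.39 and the cec-4 ratios -0.34 and -0.65, a change of -0.90 (SE 0.09, edgeR adjusted p = 9.6e-07). At V 18.2 to 18.4 Mb the ratios were 0.77 and 0.87 against 0.07 and -0.13, a change of -0.84 (SE 0.08). At V 16.8 to 17 Mb they were 0.61 and 0.67 against -0.13 and -0.27, also -0.84 (SE 0.08). The window II 1.8 to 2 Mb fell from 0.87 and 0.96 to -0.05 and -0.24. The 8 windows were chosen among called falls with both cec-4 pairs below both wild-type pairs, so this separation is not a further result. Neighbouring windows could differ in what remained. III 1.2 to 1.4 Mb fell from 0.95 and 1.00 but stayed enriched at 0.36 and 0.33, between neighbours that became depleted (-0.12 and -0.28 at III 1 to 1.2 Mb, -0.21 and -0.48 at III 1.4 to 1.6 Mb).

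**Figure D2:**
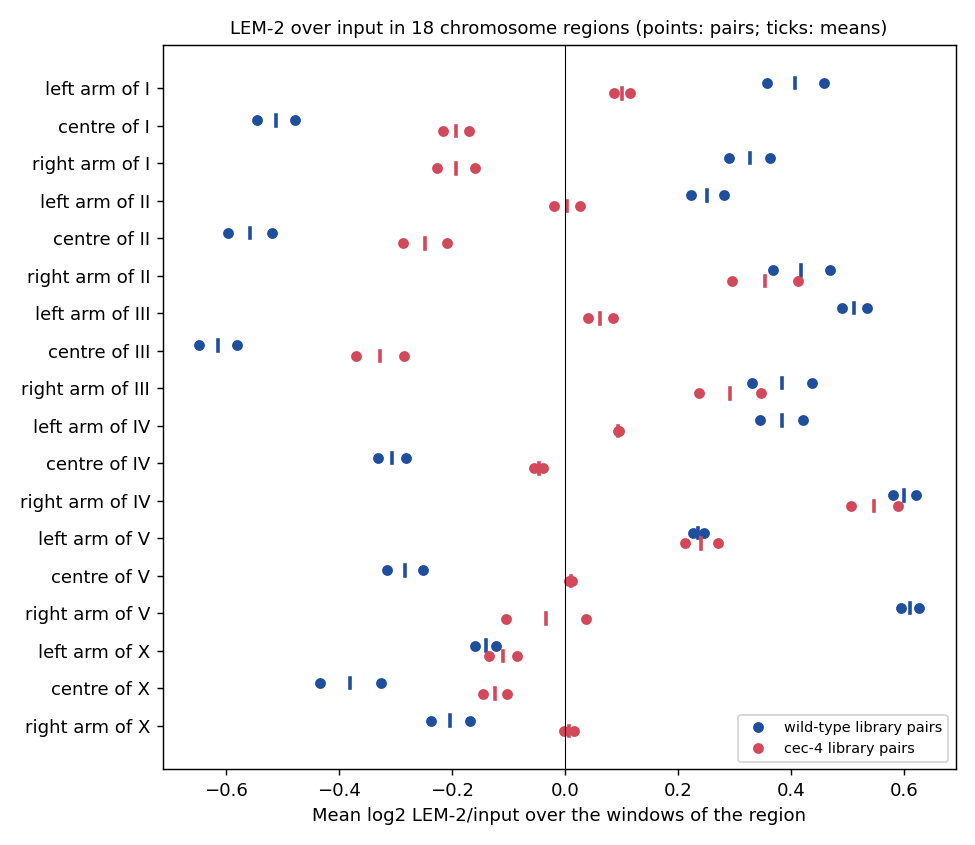
Mean log2 LEM-2 over input in each chromosome's arms and centre. Points are library pairs of wild-type (blue) and cec-4 (red) and ticks their means. The right arm of V goes from the highest wild-type mean, 0.61, to -0.03 in cec-4, while the right arm of IV has 0.60 and 0.55.

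Rises covered the chromosome centres. There were 22 rising stretches of at least 3 windows, which held 236 of the 255 rising windows over 47.2 Mb. The longest took in 32 windows of the centre of V, from 9 to 15.4 Mb, where the wild-type pairs averaged -0.47 and -0.39 and the cec-4 pairs -0.03 and -0.02. Next came 24 windows of I from 4.6 to 9.4 Mb, with -0.63 and -0.54 in wild-type and -0.18 and -0.22 in cec-4. On X 21 windows of the right arm from 12.4 to 16.6 Mb went from -0.34 and -0.26 to -0.02 and -0.03. On II 16 windows from 8.4 to 11.6 Mb went from -0.58 and -0.52 to -0.18 and -0.22, and on V 15 windows from 5.4 to 8.4 Mb from -0.29 and -0.25 to 0.07 and 0.10.

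Within the centre of IV, whose mean stayed below the input in cec-4 (-0.04 and -0.05), relative contact in 1 long stretch rose above it. The 18 windows of this stretch, from 4.4 to 8 Mb, averaged -0.24 and -0.19 in wild-type and 0.12 and 0.17 in cec-4. In wild-type 1 of them was enriched over input and 11 were depleted, and in cec-4 12 were enriched and 4 depleted. The window IV 4.8 to 5 Mb had the highest cec-4 mean of all autosomal centre windows, with 0.64 and 0.79 against 0.36 and 0.47 in wild-type. Of the 200 autosomal centre windows 38 were enriched in cec-4 and not in wild-type, 17 of them on V and 14 on IV, with means from 0.08 to 0.35. Both cec-4 pairs were above 0 in all 38. Under TMM factors 43 windows of the genome were newly enriched in cec-4 in place of 62, since those factors lower the ratios of LEM-2 to input in the mutant against wild-type.

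The 8 largest rises were smaller than the largest falls, from 0.51 to 0.56, and all lay in centres of V, III, I and II. The rise was 0.51 (SE 0.06) at V 12.6 to 12.8 Mb. It was also 0.51 at II 6 to 6.2 Mb (SE 0.05). The ratios at V 13.4 to 13.6 Mb were -0.47 and -0.38 in wild-type and 0.10 and 0.17 in cec-4. At I 8.8 to 9 Mb they were -0.65 and -0.53 against -0.10 and -0.03. The cec-4 means of the 8 windows lay between -0.07 and 0.28.

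A group of arm windows kept its contact. Of all windows 40.5% were enriched over input in wild-type and 52.4% depleted, 468 windows in all (92.9%, edgeR). Of the 204 enriched ones 63 were enriched in cec-4 as well with no called change, and 55 of these lay on autosomal arms. This is with library totals, under which the median window of the genome rose by 0.16. Kept windows numbered 47 under TMM factors, 49 with DESeq2 size factors and 42 with the DESeq2 test. Kept runs of at least 3 windows numbered 7, and all 7 lay within the right arms of II, III and IV or the left arm of V. The longest, 9 windows of IV from 13.2 to 15 Mb, averaged 0.46 and 0.51 in wild-type and 0.41 and 0.52 in cec-4. The next, 8 windows of V from 1 to 2.6 Mb, averaged 0.29 and 0.28 in wild-type and 0.22 and 0.30 in cec-4. On II 4 windows from 14.6 Mb to the right end averaged 0.66 and 0.51 in wild-type and 0.56 and 0.65 in cec-4. In each of these 3 runs the genotypes overlapped. On IV from 15.2 to 16 Mb the 4 windows averaged 0.75 and 0.88 against 0.60 and 0.70, without overlap, so a change that was not called is not a change shown to be absent.

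For whole arms the difference from wild-type had a 95% interval of -0.15 to 0.02 on the right arm of II, -0.13 to 0.03 on the right arm of IV and -0.08 to 0.09 on the left arm of V (limma). This test covered 23 lists, the 18 regions and pools of the same windows, so its counts are not of separate regions. Of these lists 18 changed (78.3%), 8 higher (34.8%) and 10 lower (43.5%), and under TMM factors all 23 did. Under TMM factors these 3 arms fell as well, by 0.19, 0.18 and 0.12 on the log2 scale. When cec-4 replicate 2 was left out, that of II also fell, by 0.12 (limma adjusted p = 0.017), and the call on the right arm of III was lost without wild-type replicate 1 or cec-4 replicate 1 (-0.04 each). With the replicate number as a block that call was lost as well (-0.09, limma adjusted p = 0.0657), which left 17 of the 18 calls.

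A measure that needs no scaling between libraries is the height of an arm above the centre of its own chromosome. Measured so, the heights of all 10 autosomal arms were lower in cec-4, including arms whose share of the library total had hardly moved. So was that of the left arm of X (11 of 12 arms, 91.7%, limma adjusted p at most 0.00276). A height is also lower where the centre rises. With library totals the left arm of V changed by 0.006 and its centre by 0.29. The right arm of IV changed by -0.05 and its centre by 0.26. The arms differed widely in what was left. The right arm of I stood at 0.91 and 0.77 above its centre in the wild-type pairs and at 0.01 and -0.01 in the cec-4 pairs. Beside the SE of 0.07 of its change, the mean height that remained could not be told from 0. The right arm of V stood at 0.94 and 0.84 in wild-type and at 0.03 and -0.12 in cec-4, at or below its centre. These were the only arms whose cec-4 pairs fell on either side of their centre.

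Most of the other arms kept part of their height. The left arm of X went from 0.27 and 0.20 to 0.02 and 0.01. The 6.24% that remained there was less than the SE of its change (0.06 on the log2 scale) and could not be told from 0. The left arm of IV kept 20.5% of its height (0.75 and 0.63 against 0.13 and 0.15). The left arms of II, I and III kept 31.0%, 32.0% and 34.6%. The left arm of V, the lowest autosomal arm in wild-type, kept 44.5% (0.56 and 0.48 against 0.20 and 0.26). The right arms of II, III and IV kept 61.7%, 62.0% and 65.5%. On IV the pairs were 0.91 and 0.90 in wild-type and 0.54 and 0.64 in cec-4, a change of -0.31 (SE 0.07, limma adjusted p = 1.87e-04). The limma test shares its spread over arms, which makes its p-values small with 2 pairs per genotype. With each arm's own variance the right arms of II and III missed the threshold (limma adjusted p = 0.0528 each). The right arm of X had 0.20 and 0.16 against 0.12 and 0.14 and missed the threshold (limma adjusted p = 0.487, interval -0.18 to 0.09).

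**Figure D3:**
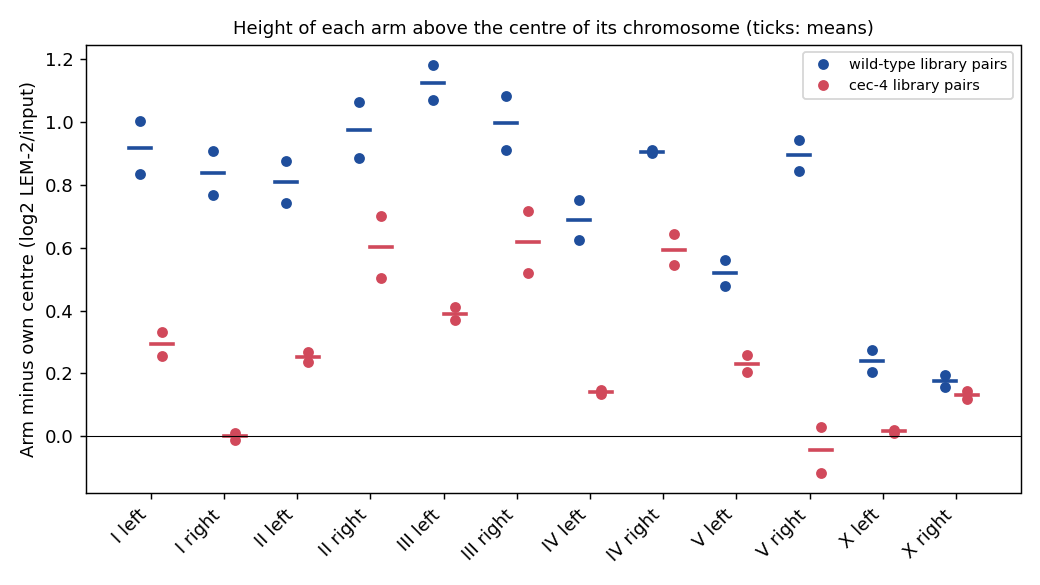
Height of each chromosome arm above the centre of its own chromosome (log2 LEM-2 over input) for library pairs of wild-type (blue) and cec-4 (red), with means as ticks. The cec-4 pairs of the right arm of I lie at 0 and those of V at 0.03 and -0.12, while those of the right arms of II, III and IV between 0.50 and 0.72.

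The 2 arms of a chromosome differed in their response on every chromosome. The left arm minus the right arm changed in all 6 (100%, limma adjusted p at most 0.0107), up on I and V and down on II, III, IV and X. On V the wild-type pairs had -0.38 and -0.37 and the cec-4 pairs 0.17 and 0.37, so the order of its arms turned round (change 0.65, SE 0.06, adjusted p = 2.09e-06 in limma). On III they had 0.10 and 0.16 against -0.15 and -0.31, which also turned the order, as did X (0.08 and 0.05 against -0.10 and -0.13). On I the left arm stood 0.10 and 0.07 above the right in wild-type and 0.24 and 0.34 above it in cec-4. On II and IV, where the right arm was already the higher, the gap widened, from -0.19 and -0.15 to -0.27 and -0.43 on II and from -0.16 and -0.28 to -0.41 and -0.49 on IV. Without wild-type replicate 1 the calls for IV and X were lost (-0.18 and -0.16, limma adjusted p = 0.0522 and 0.0547) and without wild-type replicate 2 that for II (-0.16, adjusted p = 0.079 in limma).

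Contact along the arms depended on the distance from the chromosome end. In 1 Mb bins over all autosomal arms, each taken relative to the autosomal centres, wild-type had a plateau of 0.93 ± 0.13, 0.97 ± 0.07 and 0.89 ± 0.07 in the first 3 bins and 0.67 ± 0.06 in the next (SD, n = 2). In cec-4 the first bin stood at 0.46 ± 0.03 and the following 3 at 0.24 ± 0.02, 0.26 ± 0.04 and 0.15 ± 0.02. These 4 of 6 bins fell (66.7%), most in the second (-0.73, SE 0.06, limma adjusted p = 5.07e-09). With library totals the centres themselves rose by 0.29, which is part of each of these falls. By edgeR, without the centres taken off, the median window changed by -0.196, -0.448, -0.302 and -0.165 in the first 4 bins. From 4 to 5 Mb it changed by 0.153, with 6 of 12 windows rising and 0 falling. From 5 to 6 Mb it changed by 0.3, with 3 of 5 rising and 0 falling. The bins from 4 to 5 and 5 to 6 Mb held 12 and 5 windows, came from fewer arms, the last from the left arm of V alone, and did not pass the test (-0.11 and -0.04). Without wild-type replicate 2 the first of these did (-0.16, limma adjusted p = 0.0397), and without cec-4 replicate 1 the second turned to 0.01.

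**Figure D4:**
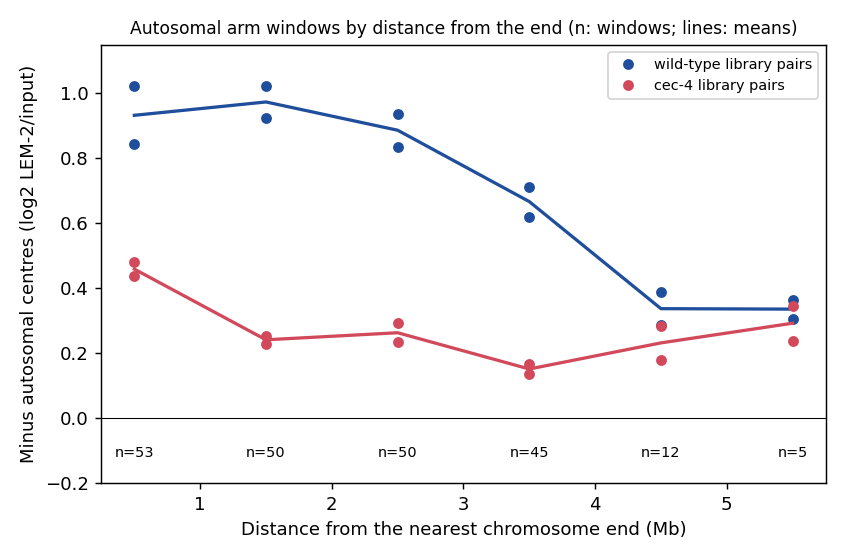
Mean log2 LEM-2 over input of autosomal arm windows, minus that of the autosomal centres, by distance from the nearest chromosome end in Mb, with the number of windows per bin. Points are library pairs and lines their means. Wild-type (blue) stays near 0.9 over the first 3 Mb, while cec-4 (red) has 0.46 in the first Mb and 0.24 in the second.

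The outermost Mb therefore stood above the second Mb in cec-4 but not in wild-type. The difference of the first from the second Mb over autosomal arms was -0.00048 and -0.08 in the wild-type pairs and 0.21 and 0.23 in the cec-4 pairs. In the met-2 set-25 pairs it was 0.13 and 0.10, so a step of this direction was not particular to cec-4. It was looked at after the bins had been seen and was not tested. Among windows of the first Mb 29 of 53 fell, 8 rose and 44 were enriched in both genotypes, and in the second Mb 40 of 50 fell, 0 rose and 29 were enriched in both. The 8 rises of the first Mb were all of the arm windows that rose within 3 Mb of an end.

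The step between end and arm was large on the left arm of II. Its first Mb had 0.44 and 0.28 in wild-type and 0.37 and 0.38 in cec-4, with overlap, and its second Mb 0.54 and 0.52 against -0.13 and -0.31. The window II 0 to 0.2 Mb rose from 0.34 and 0.06 to 0.59 and 0.53, and II 0.6 to 0.8 Mb was not called (0.59 and 0.55 against 0.40 and 0.51). At II 0.8 to 1 Mb, the start of the falling stretch, the ratios were 0.46 and 0.35 in wild-type and 0.03 and -0.03 in cec-4. The left arm of IV had the same form, with rises in its first 3 windows, from 0.33 and 0.11 to 0.45 and 0.46 on average, and a fall at IV 0.8 to 1 Mb from 0.64 and 0.57 to 0.02 and -0.04.

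On the left arm of III and the right arm of V the first Mb fell too, but less than the second. On III it went from 0.73 and 0.62 to 0.38 and 0.42, and the second Mb from 0.61 and 0.58 to -0.05 and -0.24. On V it went from 0.73 and 0.62 to 0.39 and 0.35, and the second Mb from 0.60 and 0.57 to -0.07 and -0.26. The last window of V was not called, with 0.87 and 0.72 in wild-type and 0.73 and 0.65 in cec-4. The first Mb of the right arms of II, III and IV overlapped between the genotypes.

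Right I and left V went against this pattern, and left I did not show it. On left I the first Mb minus the second was 0.04 and -0.09 in cec-4 and -0.09 and -0.19 in wild-type, with overlap. On I the first Mb from the right end fell from 0.27 and 0.16 to -0.36 and -0.51, more than the second (0.51 and 0.44 against 0.02 and 0.0041). Its last window, of 72421 bases, took 0.492 to 1.18% of the counts of a library, and its fall (-0.57, SE 0.21, edgeR adjusted p = 0.0213) was lost without input wild-type replicate 1, LEM-2 wild-type replicate 1 or input cec-4 replicate 1 (edgeR adjusted p from 0.0839 to 0.0896). The array of ribosomal RNA genes is known to lie at this end. On the left arm of V the first Mb fell from 0.66 and 0.59 to 0.40 and 0.41 while the second Mb stayed at 0.28 and 0.27 in wild-type and 0.23 and 0.32 in cec-4.

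The contact that remained in cec-4 was still far from even. By edgeR 411 of 504 windows differed from input in cec-4 (81.5%), 196 higher (38.9%) and 215 lower (42.7%). The highest was the right tip of IV, 17.4 Mb to the end, with 1.08 and 1.07 in cec-4 against 0.87 and 0.73 in wild-type (rise 0.28, SE 0.08, edgeR adjusted p = 0.00402). Next were II 15 to 15.2 Mb (0.82 and 0.96), IV 17.2 to 17.4 Mb (0.84 and 0.87), IV 16.6 to 16.8 Mb (0.69 and 0.83), IV 15.2 to 15.4 Mb (0.70 and 0.81) and II 14.8 to 15 Mb (0.68 and 0.79). All 6 lay on right II or right IV, and 5 of them within 1 Mb of the end. Of the 6, the 2 at the tip of IV rose and the other 4 were not called.

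The lowest windows in cec-4 were the last window of I (-0.82 and -0.96) and 5 centre windows, II 6.8 to 7 Mb (-0.59 and -0.97), III 5.8 to 6 Mb (-0.61 and -0.90), II 11.6 to 11.8 Mb (-0.57 and -0.85), III 4.4 to 4.6 Mb (-0.50 and -0.81) and I 9.4 to 9.6 Mb (-0.49 and -0.78). In wild-type the centre windows stood between -0.80 and -0.89 on average, and none of the 5 was called as changed.

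**Figure D5:**
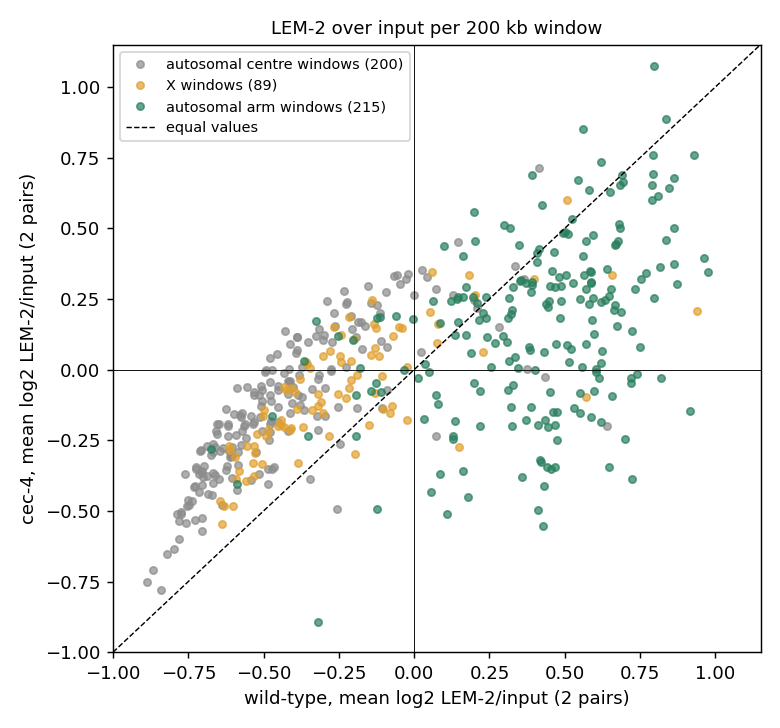
Mean log2 LEM-2 over input of each 200 kb window in cec-4 (vertical) against wild-type (horizontal), for autosomal centres (grey), X (orange) and autosomal arms (green), with a dashed line of equal values. Most centre windows lie above the line, while arm windows run from -0.68 to 0.98 in wild-type and from -0.89 to 1.08 in cec-4.

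Of the 204 windows enriched in wild-type 134 stayed enriched in cec-4, of which 63 were not called as changed, 59 fell and 12 rose. The other 70 all fell and were no longer enriched. Of the 264 windows depleted in wild-type 224 rose, and 93 of these were no longer depleted, 41 being enriched. On the autosomal arms 64 of 183 enriched windows lost their enrichment, with 15 on the right arm of V, 13 on that of I and as many on left II. On the right arms of II and IV 0 of 16 and 0 of 22 did. Without LEM-2 cec-4 replicate 2 the kept windows numbered 43 in place of 63.

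Over pooled windows the remaining contact followed wild-type contact more closely in centres than in arms. Across windows, which share libraries and are not independent, the correlation of cec-4 with wild-type means was 0.79 (Pearson) and 0.85 (Spearman) over the 200 autosomal centre windows and 0.44 and 0.42 over the 215 arm windows. Over the pooled arm windows replicate pairs correlated at 0.96 or above in either genotype, so noise between pairs was smaller than this scatter. Within single autosomal arms the lowest correlation of replicate pairs was 0.88, on the right arm of V in wild-type. Between the genotypes r ranged from 0.04 on the left arm of II to 0.87 on the left arm of I within single autosomal arms. Within single autosomal centres it ranged from 0.625 on V to 0.889 on III, so the ranges of arms and centres overlapped. The 100 autosomal windows highest in wild-type replicate 1 averaged 0.62 in wild-type replicate 2 and 0.27 and 0.28 in the cec-4 pairs. Their cec-4 means ran from -0.39 to 1.08.

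The order of the regions changed with it. In wild-type all 10 autosomal arms stood above every centre and above X. In cec-4 the right arms of IV (0.55 ± 0.06), II (0.35 ± 0.08) and III (0.29 ± 0.08) and the left arm of V (0.24 ± 0.04, SD, n = 2) led. The SDs of right II and right III overlapped, as did those of right III and left V. Within each cec-4 pair right II stood above right III (0.29 against 0.24 and 0.41 against 0.35). Right III stood above left V in each pair as well (0.24 against 0.21 and 0.35 against 0.27). These differences were not tested. The left arms of I, IV and III followed at 0.10, 0.09 and 0.06. Left II (0.0034 ± 0.03) and right V (-0.03 ± 0.10) stood beside the centre of V (0.01 ± 0.0038), and the right arm of I (-0.19 ± 0.05) beside the centre of I (-0.19 ± 0.03, SD, n = 2).

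The cec-4 pairs differed most from each other on some of these arms. Replicate 2 stood below replicate 1 by 0.14 on the right arm of V (-0.10 and 0.04). It stood above replicate 1 on the right arms of II (0.41 and 0.29), III (0.35 and 0.24) and IV (0.59 and 0.51). The contrast between lost and kept arms was therefore seen in both pairs and was wider in replicate 2.

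On X the left tip carried most of the wild-type enrichment and lost part of it. X 0 to 0.2 Mb fell from 0.96 and 0.92 to 0.32 and 0.10 (-0.74, SE 0.08, edgeR adjusted p = 1.54e-06), and X 0.2 to 0.4 Mb from 0.65 and 0.66 to 0.34 and 0.33. X 1.6 to 1.8 Mb, a second wild-type peak, fell from 0.58 and 0.57 to -0.03 and -0.17. The 3 windows between 0.6 and 1.2 Mb rose, from -0.04 and -0.04 to 0.09 and 0.15. The right tip, from 17.6 Mb, stayed enriched at 0.51 and 0.50 in wild-type and 0.62 and 0.58 in cec-4 and was not called.

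Compared directly with the mutant that lacks the methyltransferases, cec-4 had lower LEM-2 on the right arm of V, with -0.03 ± 0.10 against 0.24 ± 0.03 (SD, n = 2, limma adjusted p = 9.67e-08). A fit with the arm's own variance was not run for this comparison. The limma test gave every region the same SE, 0.04, while the cec-4 pairs of this arm were 0.04 and -0.10, so its p-value is small. In the same test right I and left III were also lower in cec-4 (-0.14 each, limma adjusted p = 0.0101 each) and right III was higher (0.11, limma adjusted p = 0.0458). The pooled autosomal arms (-0.03) and centres (0.03) did not pass it (limma adjusted p = 0.75 and 0.76). For the right arm of V the height above its centre differed too, by -0.30 (SE 0.07, limma adjusted p = 0.00396). No other arm height passed this test, and 5 of the 6 distance bins differed by less than 0.1. The left arm minus the right arm differed from met-2 set-25 on I (0.17), II (-0.17), III (-0.25) and V (0.29). The limma adjusted p was 0.019, 0.026, 0.0040 and 0.0040 in that order, and IV and X did not pass (0.22 and 0.30). By edgeR 41 of 504 windows differed (8.13%), 38 lower (7.54%) and 3 higher (0.595%) in cec-4. Those lowest against met-2 set-25 were III 1.8 to 2 Mb (0.03 and 0.12 there, -0.34 and -0.65 in cec-4), V 17.4 to 17.6 Mb and V 17.2 to 17.4 Mb. The 3 higher were II 12 to 12.4 Mb, which spans 2 windows, and III 10.6 to 10.8 Mb. When replicate 2 of LEM-2 in met-2 set-25 was left out, edgeR called 0 windows against met-2 set-25, and without LEM-2 cec-4 replicate 1 it called 141, so this count rested on single libraries.

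The inputs differed little beside these changes. In the fit of all libraries 0 of 504 input windows differed between cec-4 and wild-type by edgeR (0%), with 0 at an unadjusted p under 0.05, and the largest input difference was 0.10. A fit of the 6 inputs alone, whose spread is smaller, gave 0 calls with 86 windows at an unadjusted p under 0.05 by edgeR and 20 calls by DESeq2. Averaged over regions the input of cec-4 differed from wild-type by -0.04 on the right arm of I and by 0.03 on the right arm of IV, the ends of the range over the 18 regions. Their part in the results was not tested. The change from wild-type to cec-4 in the height of pooled autosomal arms above centres was -0.55 with matched inputs. With the mean of all 6 inputs in their place it was -0.58.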

How the data were processed

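LEM-2 chromatin immunoprecipitation and input DNA were sequenced from early embryos of 3 genotypes, with 2 replicates per group and 12 libraries in all. The authors deposited raw read counts per 200 kb window and log2 values of the same windows. The deposited log2 values are per library, not ratios. They equalled the log2 of the counts scaled to the mean library total with a pseudocount of 1 (largest difference 5.15e-14). Bowtie is named in the submitters' processing notes, while the sources used here give neither its version nor the build nor how read pairs were counted. The main values were computed from the deposited counts.

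Windows were tested with edgeR 4.0.16 (quasi-likelihood, all 12 libraries, library totals as scaling, Benjamini-Hochberg over 504 windows, threshold 0.05). Means per library pair over regions, arm heights, arm differences and distance bins were tested with limma 3.58.1 on 6 pairs, adjusted within each family. DESeq2 1.42.0 on the counts, other scalings, fits with fewer libraries and left-out replicates were alternatives. R 4.3.3 and Python 3.11.15 were used, and the edgeR step was tested on simulated data. An exact two-sided permutation test of 2 pairs against 2 cannot go below 0.333. Counting error of the median window was at most 0.716%, and reads carry no molecular identifiers, so this covers counting error only.

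Arm limits, lists and members were chosen with earlier results of these data known. Named windows were the 8 largest rises and falls that were called without overlap of the pairs, the 6 highest and 6 lowest in cec-4 and the 3 largest each way against met-2 set-25, with the 6 longest stretches of each kind. Other windows were named after their values were seen. Per the labels' protocols, the strains shared each of 2 independent rounds of growth. The main tests did not take this as pairing between strains, and a block for the replicate number was used only in alternative fits. Deviations of same-numbered libraries correlated above 0.1 in 7 of 15 pairs of groups and below -0.1 in 4.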

Additional observations from a re-analysis of the deposited data

How the results depend on the processing

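Counts of windows that changed between cec-4 and wild-type ranged from 373 to 433 when single libraries were left out, against 394. With the replicate block 256 windows rose and 143 fell, and with crossed wild-type numbers, an alternative chosen after seeing the data, 261 and 148. DESeq2 gave 197 rises and 193 falls, and centring on the median autosomal window, also added later, 268 and 136. The block ended the call on the right arm of III (limma adjusted p = 0.0657), as did the fit of wild-type and cec-4 alone (0.0637), its own variance (0.306) and the centring (0.157). The left arm of V turned to -0.12 under TMM factors, to -0.0096 with the median over windows, to -0.0040 without wild-type replicate 2 and to -0.023 without cec-4 replicate 2, the lowest of its values with a replicate left out, the highest being 0.035. The left arm of X turned to -0.092 under TMM factors, the first 4 Mb of X to 0.073 with the median, and the bin from 5 to 6 Mb to 0.011 without cec-4 replicate 1 (range with a replicate left out -0.0975 to 0.011). Against met-2 set-25 the 41 calls became 64 with DESeq2 and ranged from 0 to 141 with single libraries left out. Kept stretches held 17 windows in runs of at least 5, against 35. Causes were not tested. A filter on low counts removed 0 windows, so it could not change a value. The content of the windows in genes and sequence was not analysed here.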
